A study of Mus musculus with 12 samples.

Results

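The Notch pathway was represented by 10 genes, which were followed across 4 sorted stromal populations of mouse mammary tumours. They were the receptors Notch1, Notch2, Notch3 and Notch4, the ligands Jag1 and Dll4, and the target genes Hes1, Hey1, Hey2 and Heyl. The members were taken by gene symbol from the deposited expression table, where each symbol matched a single row, giving 10 of 55487 genes. All 10 passed the filter on low values used for testing, which asked for 1 CPM in 3 or more libraries. Hey2 and Notch4 did so only through their values in vcaf, 1 of the populations described below. The tumours came from 3 untreated FVB MMTV-PyMT mice aged 10 weeks, a transgenic line whose oncogene, polyoma middle T, is expressed from a mammary tumour virus promoter in the epithelium of the gland. All populations were live, PDGFRb-positive and negative for CD45, CD31 and EPCAM. The icaf gate held Ly6C-positive cells. The m2cafneg and m2cafpos gates held cells without Ly6C or CD146 but with PDGFRa, negative or positive for NCAM. The vcaf gate held Ly6C-negative, CD146-positive, PDGFRa-negative cells. Each population was sorted from each of the mice 27, 30 and 31, so there were 3 libraries per population and 12 in all. The series is titled for senescent stroma in breast cancer, and its design text states a comparison of expression between the 4 fibroblast populations. There were no control samples outside these populations.

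Notch receptors are activated by ligands of the Delta and Jagged families on a neighbouring cell. Ligand binding leads to cleavage by ADAM metalloproteases and gamma-secretase, and the freed intracellular domain joins the DNA-binding factor RBPJ to switch on target genes such as those of the Hes and Hey families. In blood vessels, Notch3 is known as the receptor of mural cells (pericytes and smooth muscle), Notch1, Notch4 and Dll4 are known from endothelium, and endothelial Jag1 is a ligand for mural Notch3. In the mammary gland, Notch signalling also takes part in luminal epithelial fate.

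Promoter sequence (up to 250 bases before the RefSeq start, assembly GRCm38.p6) was found for 7 of the 10 members, and not for Hes1, Hey1 and Heyl. It is printed for the receptor and the target gene with the highest difference between vcaf and the other populations, 5′ to 3′ along the gene's strand, which is the minus strand for both. Notch3 lay at chr17:32166891-32167140 and Hey2 at chr10:30842802-30843033. Capitals mark a match to the RBPJ core motif TGGGAA on the reverse strand (TTCCCA).
Notch3: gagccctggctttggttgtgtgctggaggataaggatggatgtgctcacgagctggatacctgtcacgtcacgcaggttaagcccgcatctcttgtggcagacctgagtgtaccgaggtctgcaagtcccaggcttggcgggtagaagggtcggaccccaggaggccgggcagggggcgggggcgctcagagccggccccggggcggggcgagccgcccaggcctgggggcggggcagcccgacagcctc
Hey2: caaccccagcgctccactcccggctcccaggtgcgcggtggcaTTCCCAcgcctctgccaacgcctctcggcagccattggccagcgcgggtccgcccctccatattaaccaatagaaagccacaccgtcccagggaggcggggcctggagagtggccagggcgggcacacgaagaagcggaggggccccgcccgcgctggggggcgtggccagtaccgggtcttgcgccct
The Hey2 match began 207 bases before the RefSeq start. Both strands were searched for TGGGAA and for the Hes and Hey E box CACGTG, 2 motifs that do not overlap each other. Of 32851 RefSeq promoters, 21.6% held TGGGAA and 6.02% held CACGTG within 250 bases. Among the 7 members, the Hey2 window held the only TGGGAA match and no window held CACGTG. A match is a description of letters and not of a bound site. The windows searched stop at the RefSeq start. The printed sequence also stops before any GENCODE start in the window, so Hey2 is printed at 232 bases. Its match therefore lies fewer than 207 bases from the printed end.

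Values are read counts scaled to the same total in every library (CPM). The libraries held 43898839 to 55363203 reads, so a single read stood for 0.0181 to 0.0228 CPM. Among the genes of the sort, Pdgfra was low in vcaf, the gate without PDGFRa. Levels of the genes of Ly6C, CD146, NCAM and PDGFRb are not given here. Pdgfra, the sorted PDGFRa receptor, was at 4.44 to 8.49 CPM in vcaf and at 358 to 586 CPM elsewhere. The pericyte gene Rgs5 was at 31133 to 51484 CPM in vcaf and at 16.9 to 357 CPM elsewhere, and the smooth muscle gene Myh11 at 222 to 271 CPM against 0.152 to 9.82 CPM. RNA of excluded cell types was present in all populations, and none of the 10 defining markers examined was at 0 in any library. Epcam, the gene of the EPCAM protein that every gate excluded, was at 415 to 739 CPM in vcaf and 281 to 520 CPM in m2cafneg. It was at 44.6 to 115 CPM in icaf and 24.5 to 120 CPM in m2cafpos. The summed CPM of 16 endothelial markers was 184 to 316 in icaf, 231 to 620 in m2cafneg, 90.4 to 149 in m2cafpos and 544 to 797 in vcaf. For 17 epithelial markers it was 1055 to 3055 in icaf, 5780 to 12344 in m2cafneg, 678 to 2931 in m2cafpos and 8037 to 16324 in vcaf. For 11 macrophage markers it was 93.7 to 213 in icaf, 603 to 975 in m2cafneg, 152 to 235 in m2cafpos and 559 to 1346 in vcaf. Compared with the mean of the others, vcaf had higher levels by limma of 13 of 16 endothelial, 17 of 17 epithelial and 10 of 11 macrophage markers. All 10 pericyte and all 10 smooth muscle markers were higher too. Of all 15456 genes tested, 53.3% were higher in this comparison. With median-of-ratios scaling between libraries all genes split into 3648 higher and 3797 lower, and the marker counts given are without it. In these bulk samples, fewer cells of a type and less RNA per cell cannot be told apart.

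Among the receptors, Notch3 was the vcaf receptor gene, Notch1 was also highest in vcaf, Notch4 was low throughout, and Notch2 was highest in icaf and lowest in vcaf. Notch3 (ENSMUSG00000038146, chromosome 17, 32120820 to 32166852, minus strand of GRCm38) encodes the mural cell receptor. In vcaf it was at 897, 843 and 594 CPM in mice 27, 30 and 31, the order of mice used for all values that follow. It was at 16.9, 12.5 and 32 CPM in m2cafneg, at 13.4, 7.95 and 17.5 CPM in m2cafpos, and at 2.75, 2.95 and 7.39 CPM in icaf. All vcaf libraries lay far above the others, both m2caf populations overlapped, and icaf lay below both. The vcaf mean was 38.1 times that of m2cafneg, the next population. On the log2(CPM + 1) scale used for all tests, Notch3 was 6.12 higher in vcaf than in the mean of the other 3 populations (SE 0.31, limma adjusted p = 8.20e-09). The step from m2cafneg to m2cafpos was not past the threshold (limma adjusted p = 0.277), and icaf was 1.42 below m2cafpos (SE 0.38, limma adjusted p = 0.0158). That last call was lost in 4 of the 12 fits that each left out a library (without icaf 27 or 30, or m2cafpos 27 or 31), where the difference ranged from -1.79 to -1.19 over all 12 fits.

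Notch1 (ENSMUSG00000026923, chromosome 2, 26457903 to 26516663, minus strand), the receptor best known from endothelial and epithelial cell fate, was at 81.6, 76.4 and 91.2 CPM in vcaf. Its values were 38.1, 29.4 and 61.0 CPM in m2cafneg, 31.8, 18.2 and 37.0 CPM in m2cafpos, and 9.23, 5.86 and 14.0 CPM in icaf. The vcaf libraries lay above all others and the icaf libraries below all others, while m2cafneg and m2cafpos overlapped. Notch1 was 1.86 higher in vcaf than in the mean of the others (SE 0.26, limma adjusted p = 7.40e-05). Against m2cafneg alone the difference was 1.0 (SE 0.32, limma adjusted p = 0.0279). That call was lost without m2cafneg 27 or 30 or any single vcaf library (5 of 12 fits, up to adjusted p = 0.107), and with median-of-ratios (0.73) or TMM scaling (0.72), edgeR (0.69), no filter and the endothelial covariate (0.58), so in 10 of 23 settings. The icaf level was 1.5 below m2cafpos (SE 0.32, limma adjusted p = 0.00441).

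Notch4 (ENSMUSG00000015468, chromosome 17, 34564268 to 34588503, plus strand), known as an endothelial receptor, was at 5.09, 2.88 and 4.55 CPM in vcaf. It was at 0.609, 0.405 and 3.61 CPM in m2cafneg, at 0.741, 0.118 and 0.812 CPM in icaf, and at 0.307, 0.463 and 0.387 CPM in m2cafpos. The m2cafneg library of mouse 31 reached into the vcaf range and stood apart from the other libraries of its population. That library also had the highest endothelial marker sum of the 9 libraries outside vcaf, with the endothelial cadherin gene Cdh5 at 46.9 CPM against 7.40 and 12.6 CPM in the other m2cafneg libraries. The lowest Notch4 value rested on 6 reads. Notch4 was 1.61 higher in vcaf than in the mean of the others (SE 0.31, limma adjusted p = 0.000675), and the other 3 populations did not differ past the threshold in any pair (limma adjusted p = 0.216 to 0.846). Against m2cafneg alone it was 1.22 higher (SE 0.38, limma adjusted p = 0.0241), a call lost in 4 of 12 fits (without m2cafneg 27 or 30, or vcaf 27 or 31). It was also lost with a pseudocount of 0.1 CPM, no filter, TMM or median-of-ratios scaling, edgeR (1.19), the compared populations alone and the endothelial covariate (0.61), so in 11 of 22 settings.

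Notch2 (ENSMUSG00000027878, chromosome 3, 98013527 to 98150361, plus strand) was the receptor gene with the highest level outside vcaf. It was at 233, 304 and 177 CPM in icaf, 165, 248 and 139 CPM in m2cafneg, 117, 119 and 148 CPM in m2cafpos, and 97.4, 106 and 80.8 CPM in vcaf. The vcaf libraries lay below all 9 others, and each other neighbouring pair overlapped. Notch2 was 0.88 lower in vcaf than in the mean of the others (SE 0.18, limma adjusted p = 0.00110). Between vcaf and m2cafpos the difference of -0.43 was not past the threshold (SE 0.22, limma adjusted p = 0.10). It was past it in 5 of 23 settings. These were the mouse as a block (adjusted p = 0.0436), median-of-ratios (-0.99) and TMM scaling, edgeR, and the compared populations alone. In 2 settings it changed sign without being past the threshold.

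**Figure D1:**
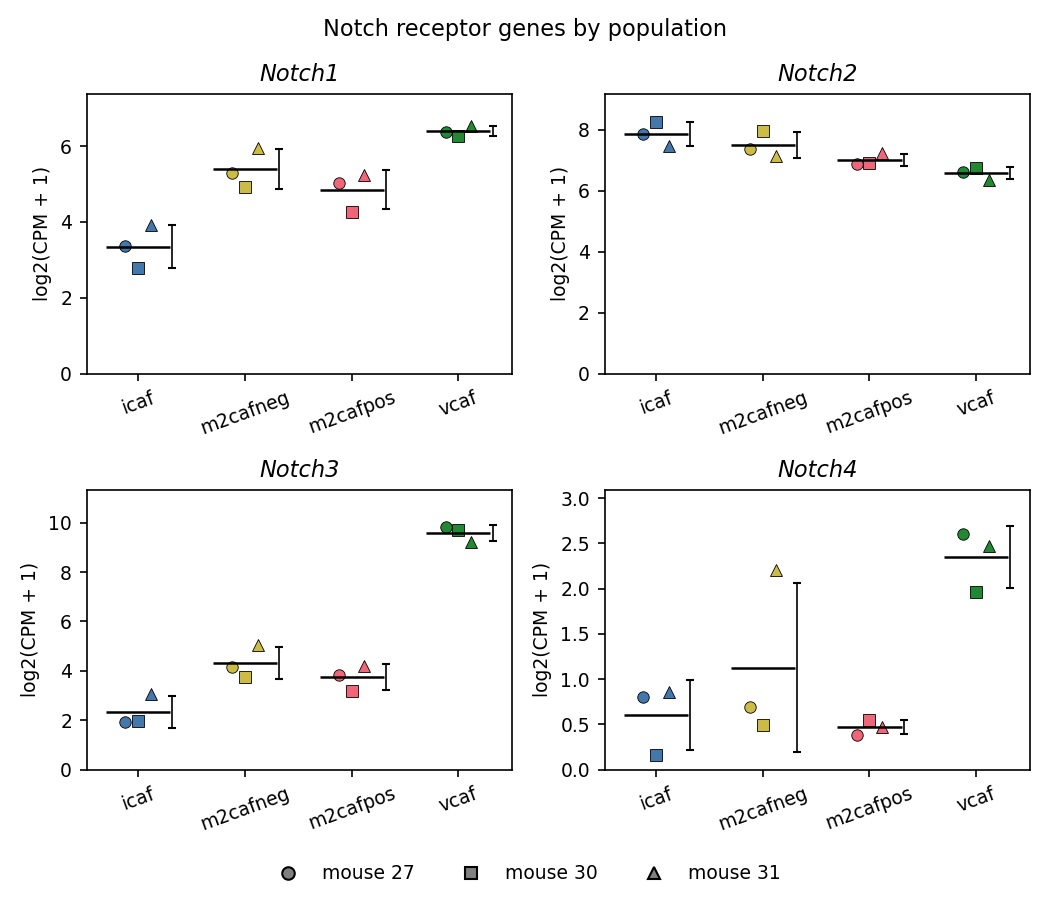
Levels of the 4 Notch receptor genes as log2(CPM + 1) in each library, by population, with point shapes for the mice, a line for the mean and a bar for the SD (n = 3). Notch3 in vcaf (594 to 897 CPM) stands above every other library (at most 32 CPM), Notch1 is highest in vcaf and lowest in icaf, and Notch2 is lowest in vcaf.

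Divided by the length of all exons, so that receptors can be set beside each other, the summed receptor level was 111 ± 20.5 CPM per kb in vcaf (SD, n = 3). It was 22.8 ± 3.43 CPM per kb in m2cafneg, 23.3 ± 5.31 in icaf and 15.6 ± 2.66 in m2cafpos. Notch3 made up 86.1% ± 2.27 of this sum in vcaf (SD, n = 3). Notch2 made up 93.9% ± 4.23 in icaf, 74.0% ± 13.4 in m2cafneg and 76.7% ± 5.16 in m2cafpos, and 7.96% ± 0.715 in vcaf. Notch1 held 13.6% ± 6.06 in m2cafneg and 12.9% ± 2.94 in m2cafpos, against 3.21% ± 1.98 in icaf and 5.44% ± 1.61 in vcaf. Notch4 stayed under 2.08% in every library. The leading receptor gene was therefore Notch3 in all 3 vcaf libraries and Notch2 in the other 9.

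**Figure D2:**
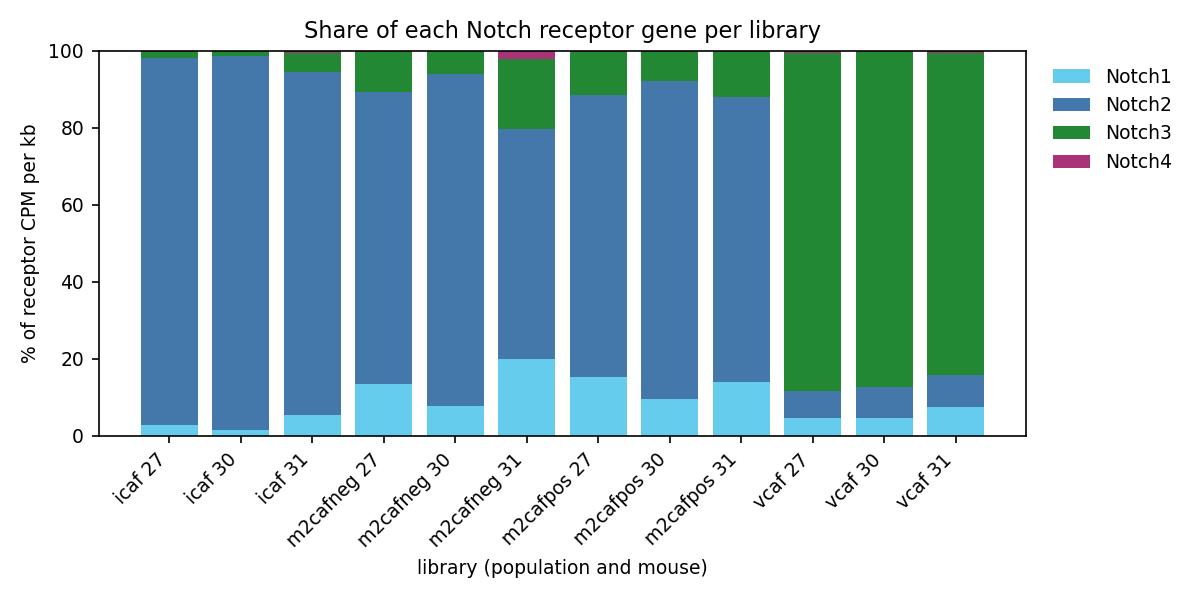
Share of each receptor gene in the summed receptor level (CPM per kb of exon) in each of the 12 libraries, as stacked bars that add up to 100%. Notch3 takes 83.5% to 87.8% in the vcaf libraries, and Notch2 takes 59.8% to 97.3% in the others.

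Of the ligands, Jag1 was abundant in every population and highest in vcaf, and Dll4 was low and uneven between mice. Jag1 (ENSMUSG00000027276, chromosome 2, 137081456 to 137116644, minus strand) was at 333, 314 and 191 CPM in vcaf. It was at 103, 101 and 107 CPM in m2cafpos, 104, 126 and 72.5 CPM in icaf, and 85.3, 75.0 and 88.6 CPM in m2cafneg. All vcaf libraries lay above all others, icaf overlapped both m2caf populations, and m2cafpos lay just above m2cafneg. Jag1 was 1.51 higher in vcaf than in the mean of the others (SE 0.17, limma adjusted p = 1.39e-05) and 1.38 higher than in m2cafpos, the next in order (SE 0.21, limma adjusted p = 0.000141). No pair of the other 3 populations differed past the threshold (limma adjusted p = 0.285 to 0.842). With m2cafpos and m2cafneg fitted alone, Jag1 was called higher in m2cafpos. Without mouse 31, a choice made after the data were seen, it was called higher in icaf than in m2cafneg.

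Dll4 (ENSMUSG00000027314, chromosome 2, 119325784 to 119335962, plus strand), a ligand known from endothelial tip cells and arteries, was at 14.4, 6.75 and 23.2 CPM in vcaf. It was at 3.11, 5.11 and 17.9 CPM in m2cafneg, 0.494, 0.786 and 6.69 CPM in icaf, and 0.975, 1.11 and 1.73 CPM in m2cafpos. Mouse 31 had the highest Dll4 value in every population, and vcaf overlapped m2cafneg. Dll4 was 1.97 higher in vcaf than in the mean of the others (SE 0.53, limma adjusted p = 0.00589), but not past the threshold against m2cafneg (0.87, SE 0.65, limma adjusted p = 0.301). Without mouse 31, a choice made after the data were seen, the difference from m2cafneg was 1.13 and past the threshold. Per kb of exon, Jag1 made up 91.7% ± 6.47 of the sum of both ligands in vcaf (SD, n = 3) and 87.4% ± 9.52 to 98.2% ± 0.505 in the other populations.

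The target genes differed in pattern. Hey2 was nearly restricted to vcaf, Hes1 was highest there with a smaller difference, Heyl was low only in icaf, and Hey1 had its highest means in vcaf and m2cafneg. Hey2 (ENSMUSG00000019789, chromosome 10, 30832359 to 30842801, minus strand), a repressor of the Hey family known from heart and vessel wall, was at 15.8, 15.2 and 10.9 CPM in vcaf. Elsewhere it was at most 0.697 CPM, and in icaf it had 2, 0 and 10 reads. All vcaf libraries lay far above the rest. Hey2 reached the 1 CPM of the filter in vcaf alone, so it was tested because it was high there. The vcaf mean was 30.0 times that of m2cafneg, and the difference from the mean of the others was 3.55 (SE 0.16, limma adjusted p = 3.16e-09), which the added 1 CPM makes smaller than the ratio. With a pseudocount of 0.1 CPM in place of 1 CPM, Hey2 in icaf against the mean of both m2caf populations was past the threshold (-1.45), whereas with 1 CPM it was not (-0.34, limma adjusted p = 0.153).

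Hes1 (ENSMUSG00000022528, chromosome 16, 30064384 to 30067796, plus strand), the widely expressed Notch target of the Hes family, was at 45.2, 59.3 and 40.0 CPM in vcaf. It was at 22.6, 26.0 and 25.0 CPM in m2cafneg, 19.0, 20.4 and 18.0 CPM in m2cafpos, and 16.0, 12.6 and 12.2 CPM in icaf. No neighbouring populations in this order overlapped. Hes1 was 1.31 higher in vcaf than in the mean of the others (SE 0.13, limma adjusted p = 2.82e-06). The step from m2cafneg to m2cafpos was not past the threshold (limma adjusted p = 0.118). The step from m2cafpos to icaf was 0.47 down (SE 0.15, limma adjusted p = 0.0439), a call lost in 8 of 12 fits that left out a library, among them each m2cafpos library, icaf 30 or 31, m2cafneg 27 or 31 and vcaf 27.

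Heyl (ENSMUSG00000032744, chromosome 4, 123233556 to 123249875, plus strand), a Hey family gene known from smooth muscle and pericytes, was high in 3 populations. It was at 331, 305 and 443 CPM in m2cafpos, 443, 314 and 257 CPM in vcaf, and 357, 109 and 377 CPM in m2cafneg. In icaf it was at 18.9, 11.7 and 42.2 CPM, below every other library. Heyl did not differ past the threshold between vcaf and m2cafpos (-0.11, SE 0.48, limma adjusted p = 0.853) or between vcaf and m2cafneg (0.43, SE 0.48, limma adjusted p = 0.491). The SE of 0.48 leaves room for differences in either direction. The icaf level was 3.74 below the mean of both m2caf populations (SE 0.41, limma adjusted p = 3.44e-05). The difference of 1.41 between vcaf and the mean of the others (SE 0.39, limma adjusted p = 0.00702) averages over icaf and the 2 m2caf populations, and it was not called by edgeR (0.92, adjusted p = 0.0611).

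Hey1 (ENSMUSG00000040289, chromosome 3, 8663359 to 8667256, minus strand), a Hey family gene of many tissues, was at 34.3, 55.7 and 76.1 CPM in vcaf and 41.5, 20.2 and 69.2 CPM in m2cafneg. It was at 6.48, 5.23 and 20.2 CPM in icaf and at 9.99, 5.75 and 16.1 CPM in m2cafpos. Values of vcaf and m2cafneg overlapped and did not differ past the threshold (0.43, SE 0.52, limma adjusted p = 0.527), nor did icaf and m2cafpos (limma adjusted p = 0.909). The library of mouse 31 was the highest in every population. Hey1 was 1.72 higher in vcaf than in the mean of the others (SE 0.43, limma adjusted p = 0.00360) and 2.00 lower in icaf than in m2cafneg (SE 0.52, limma adjusted p = 0.0125). The latter call was lost without icaf 27 or 30 or m2cafneg 31, where the difference was -1.79, -1.66 and -1.59.

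**Figure D3:**
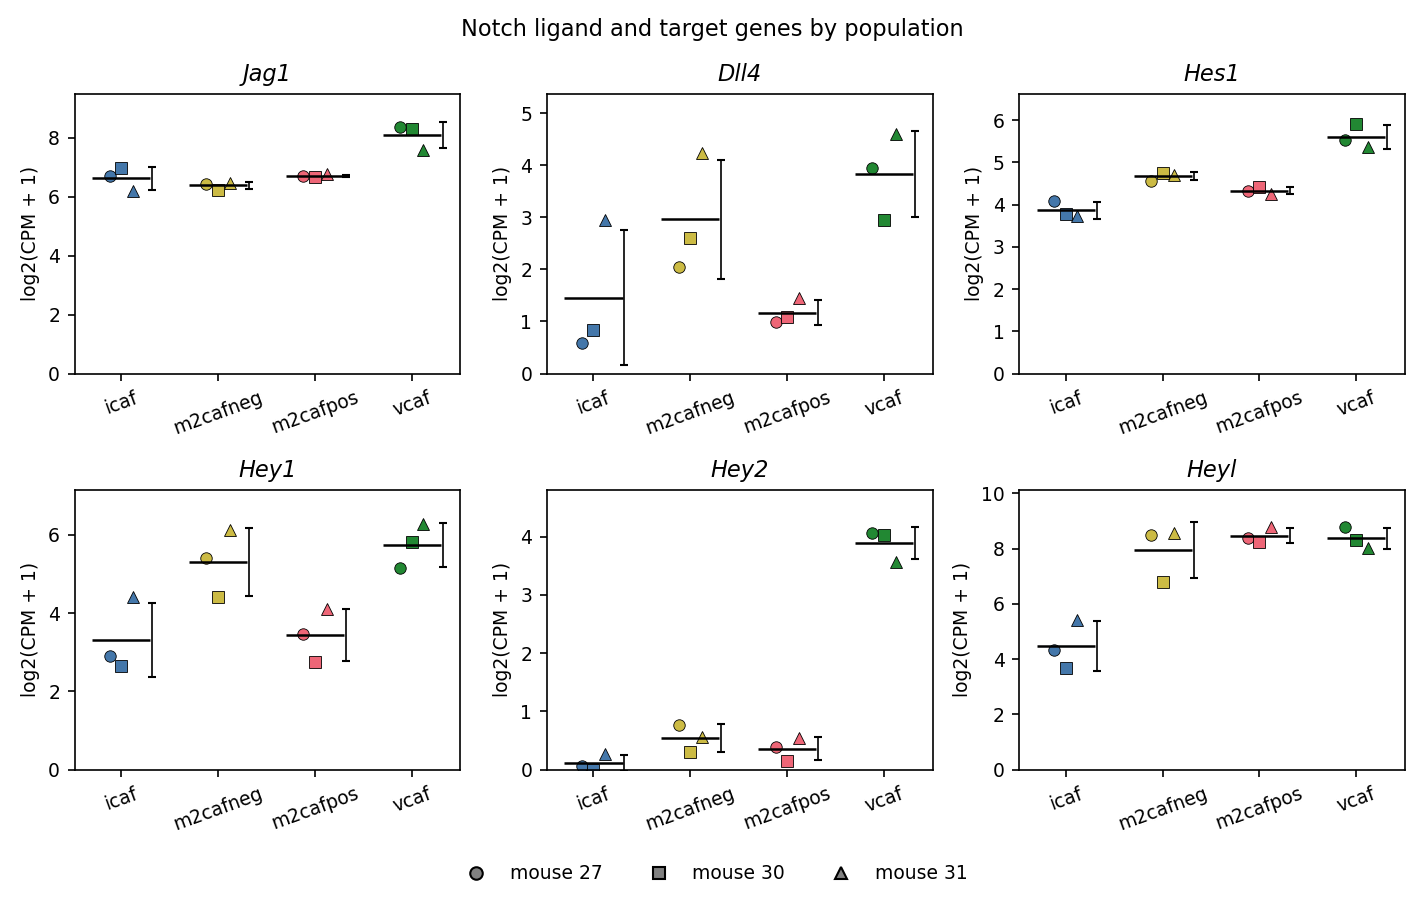
Levels of the ligand genes Jag1 and Dll4 and the target genes Hes1, Hey1, Hey2 and Heyl as log2(CPM + 1) in each library, by population, with point shapes for the mice, a line for the mean and a bar for the SD (n = 3). Hey2 is near 0 outside vcaf, Heyl is low in icaf alone, and Dll4 and Hey1 have their highest means in vcaf and m2cafneg, with overlap between these and with mouse 31 highest in each population.

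Per kb of exon, the 4 target genes together were lowest in icaf, at 14.7 ± 5.29 CPM per kb (SD, n = 3). Their sum was 80.5 ± 35.5 in m2cafneg, 83.0 ± 15.4 in m2cafpos, and highest at 110 ± 13.7 in vcaf. Heyl made up 84.5% ± 1.49 of this sum in m2cafpos, 65.3% ± 11.2 in m2cafneg and 59.5% ± 9.69 in vcaf. In icaf it made up 30.1% ± 9.15, and Hes1 had the highest mean share at 49.6% ± 17.7, although Heyl led in mouse 31 (40.3% against 29.3%). Hey2 reached 2.76% ± 0.263 in vcaf and at most 0.211% in any other library.

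Compared with the mean of the others, the vcaf gate differed in all members by limma, but not from each population alone. Of the 10 members, 9 were higher and 1 (Notch2) was lower in vcaf than in the mean of the other 3, where 53.3% of all 15456 genes tested were higher and 14.2% lower (67.5% called). The median difference was 1.67 over the members and 0.38 over all genes. With libraries compared directly, 5 members (Notch1, Notch3, Jag1, Hey2 and Hes1) had all vcaf values above all 9 others, against 25.8% of all genes, and Notch2 had all below, against 8.09%. The authors' CPM carry no further scaling between libraries, and median-of-ratios scaling moved the median of all genes by -0.36, which changed the split over all genes to 3648 higher and 3797 lower. Under that scaling the members kept their directions, at 0.91 to 5.72 for the 9 higher ones and -1.29 for Notch2. All 10 calls were also made in each of the 12 fits that left out a library. Hey2 and Notch4 passed the filter only through their vcaf values, so they entered these counts because they were high in vcaf.

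Pair by pair, vcaf against icaf had 9 members higher and Notch2 lower (46.1% and 13.9% of all genes, 59.9% called in all). The same 10 members did not overlap, where 49.3% of all genes lay above and 15.3% below. Against m2cafneg 6 were higher and Notch2 lower (26.6% and 11.3%, 37.9% in all), with 5 above and 1 below without overlap (34.1% and 12.9%), and Dll4, Hey1 and Heyl were not past the threshold. Against m2cafpos 8 were higher and 0 lower (55.5% and 12.4%, 67.9% in all), with 8 above and 1 below without overlap (58.2% and 13.9%), and 0 were lower at an unadjusted p under 0.05 while edgeR called 1 lower. Notch2 and Heyl were the members not past the threshold there. With median-of-ratios scaling all genes split into 3807 higher and 3714 lower against icaf, 1549 and 2378 against m2cafneg, and 3516 and 3623 against m2cafpos. Against m2cafneg 4 members (Notch3, Jag1, Hey2 and Hes1) were then higher, as with TMM scaling and edgeR. Without m2cafneg 30 the differences from m2cafneg that were not past the threshold turned to -0.16 for Heyl and -0.03 for Hey1. These comparisons share the vcaf libraries. Notch1, Notch3, Notch4, Jag1, Hey2 and Hes1 were higher in vcaf than in each of the other populations by limma, with differences from 0.93 (Hes1 against m2cafneg) to 7.26 (Notch3 against icaf).

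**Figure D4:**
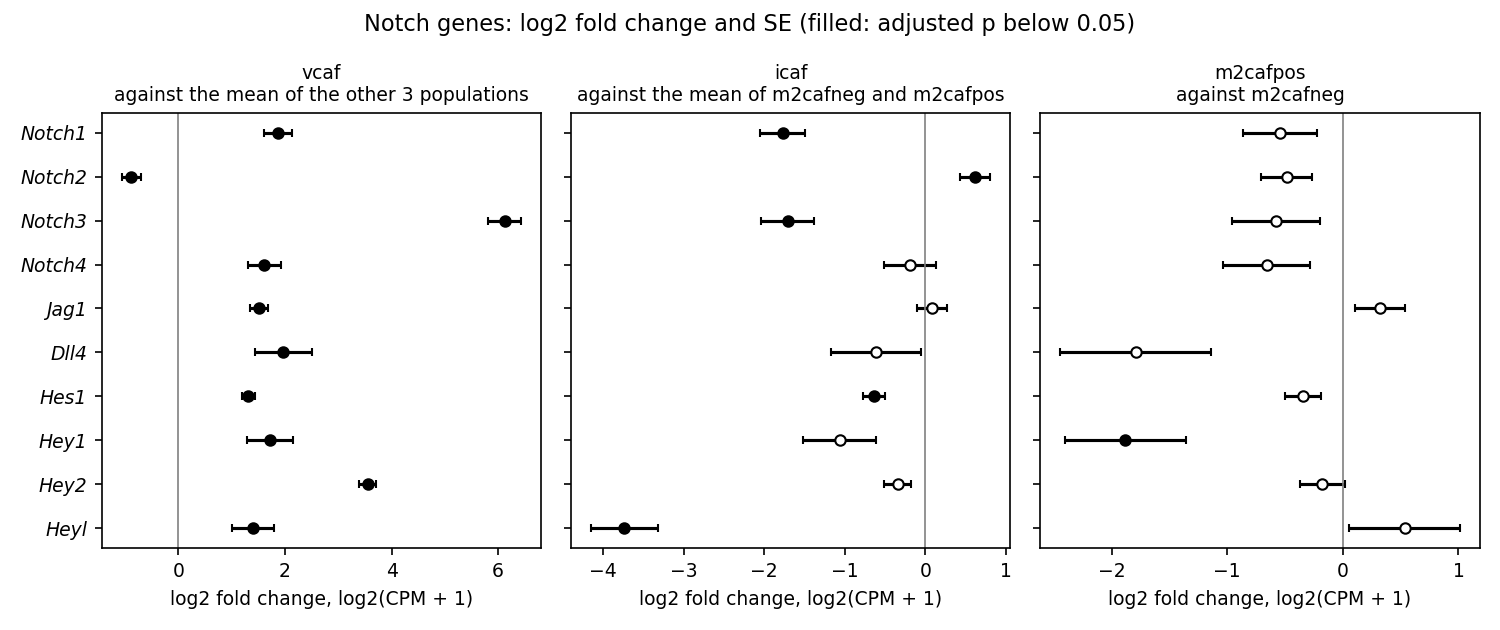
Difference of each member in the 3 main comparisons on the log2(CPM + 1) scale, with the SE as a bar and filled points for a limma adjusted p below 0.05. In vcaf 9 members are higher and Notch2 lower, in icaf Heyl has the lowest value (-3.74), and between the m2caf gates Hey1 (-1.88) is the filled point.

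The Ly6C-positive icaf gate had lower Notch3, Notch1, Heyl and Hes1 and higher Notch2 than the mean of both m2caf populations. The differences were -1.71 for Notch3 (SE 0.33, limma adjusted p = 0.00205), -1.77 for Notch1 (SE 0.28, limma adjusted p = 0.000480), -3.74 for Heyl, and -0.64 for Hes1 (SE 0.13, limma adjusted p = 0.00362). Notch2 was 0.62 higher (SE 0.19, limma adjusted p = 0.0322). Thus 1 member was higher and 4 lower, with 12.1% of all genes higher and 14.2% lower (26.3% called). The median difference was -0.63 over the members and -0.01 over all genes. The 4 lower members had all icaf libraries below all 6 m2caf libraries, against 9.76% of all genes, and no member had all icaf libraries above, against 10.6%. The Notch2 call was lost in 6 of 12 fits that left out a library (without icaf 27 or 30, m2cafneg 27 or 31, or m2cafpos 27 or 30; 0.42 to 0.81 over all 12). Hey1 was 1.06 lower, not past the threshold (limma adjusted p = 0.104), but past it with the mouse as a block (adjusted p = 0.00403), without icaf 31 (-1.61) and without m2cafneg 30 (-1.29). In this comparison 5 of 16 endothelial, 7 of 17 epithelial and 10 of 11 macrophage markers were lower too. With the summed epithelial markers as a covariate the 4 lower members remained past the threshold, Heyl at -3.23. The share of all genes called was 15.3% in that fit.

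Against each m2caf population alone, icaf had 0 members higher and 5 lower than m2cafneg (8.77% and 20.9% of all genes, 29.7% called), with 0 higher at an unadjusted p under 0.05 and 0 by edgeR. The lower members were Notch1, Notch3, Hey1, Heyl and Hes1, and 6 members lay below without overlap (29.2% of all genes). Against m2cafpos, 1 was higher (Notch2) and 4 were lower (15% and 8.86%, 23.9% in all), with 1 above and 4 below without overlap (28.4% and 14.6%). The Notch2 difference was 0.86 (limma adjusted p = 0.0135), a call lost without icaf 30 or m2cafpos 27. With the epithelial covariate Hes1 (-1.11) was the only one of the 5 still called against m2cafneg, with Notch1 at -0.86, Notch3 at -0.76, Heyl at -2.40 and Hey1 turned to 0.10. The share of all genes called fell from 29.7% to 3.88% in that fit. Median-of-ratios scaling split all genes into 2108 higher and 2537 lower against m2cafneg and 1479 and 1819 against m2cafpos. The Dll4 difference from m2cafpos (0.28, not past the threshold) turned to -0.46 without icaf 31. These comparisons share the icaf libraries.

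Between the m2caf gates that differ in NCAM, a single member was called. Hey1 was 1.88 lower in m2cafpos (SE 0.52, limma adjusted p = 0.0216), with all 3 m2cafpos libraries below all 3 m2cafneg libraries. It was the only member called of 10, with 3.51% of all genes higher and 22.6% lower (26.1% called). Without overlap, Jag1 lay above (7.09% of all genes) and Dll4, Hes1 and Hey1 below (36.4%). No member was higher by limma in the fit of all populations, 0 were so at an unadjusted p under 0.05, 4 were lower at that level, and edgeR called 0 in either direction. With the compared populations fitted alone Jag1 was called higher. With median-of-ratios scaling, which moved the median of all genes by 0.25 and the split from 542 higher and 3499 lower to 1358 higher and 1280 lower, Hey1 was at -1.61 (limma adjusted p = 0.0509). With the marker covariates the Hey1 call was lost too, at -0.41 with the endothelial sum and turned to 0.33 with the epithelial one. The share of all genes called fell from 26.1% to 0.505% and 1.44% in these fits, so the loss was not particular to Hey1. The Hey1 call was also lost without m2cafneg 31 (-1.47), m2cafpos 27 (-1.89) or m2cafpos 30 (-1.54). With the mouse as a block 3 members were lower, adding Dll4 (-1.79, adjusted p = 0.00357) and Notch1 (-0.54, adjusted p = 0.0237), whereas without the block these had limma adjusted p = 0.0600 and 0.230. The Dll4 call was also made without icaf 31 and without m2cafneg 27 (-2.25). In the same comparison 10 of 16 endothelial, 16 of 17 epithelial and 10 of 11 macrophage markers were lower in m2cafpos.

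Levels of several members moved with markers of other cell types across the libraries. Dll4 was at 22.7% to 63.5% of the CPM of Cdh5 in the 12 libraries, a 2.80-fold range, while Dll4 itself ranged 47.1-fold. The endothelial marker gene Kdr did not run with Dll4 in every library. Kdr was at 24.6 CPM in icaf 30 and 19.6 CPM in vcaf 31, where Dll4 was at 0.786 and 23.2 CPM. Hey1 was at 7.20% to 23.5% of the CPM of the epithelial adhesion gene Epcam, a 3.26-fold range, while Hey1 itself ranged 14.6-fold. Notch3 was at 1.74% to 2.03% of the pericyte gene Rgs5 in vcaf and at 6.24% to 79.0% elsewhere. Over the 12 libraries, as deviations from the population means on the log2 scale, r was 0.90 between Hey1 and the summed epithelial markers, 0.84 between Notch1 and that sum, and 0.69 between Dll4 and the summed endothelial markers. For Notch3 it was 0.81 with the summed pericyte markers and 0.74 with the epithelial sum. With the pericyte sum it was 0.78 for both Notch4 and Heyl. These values were not particular to 1 cell type. Dll4 was at 0.67 with the epithelial and 0.65 with the pericyte sum, and Hey1 at 0.71 with the macrophage sum. With the smooth muscle sum r was 0.85 for Notch1, 0.79 for Heyl, 0.72 for Hey1 and -0.83 for Notch2. With the epithelial sum it was -0.53 for Hes1, -0.42 for Jag1 and -0.39 for Notch2. These points share their libraries and mice, and mouse 31 had the highest epithelial sum in every population.

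**Figure D5:**
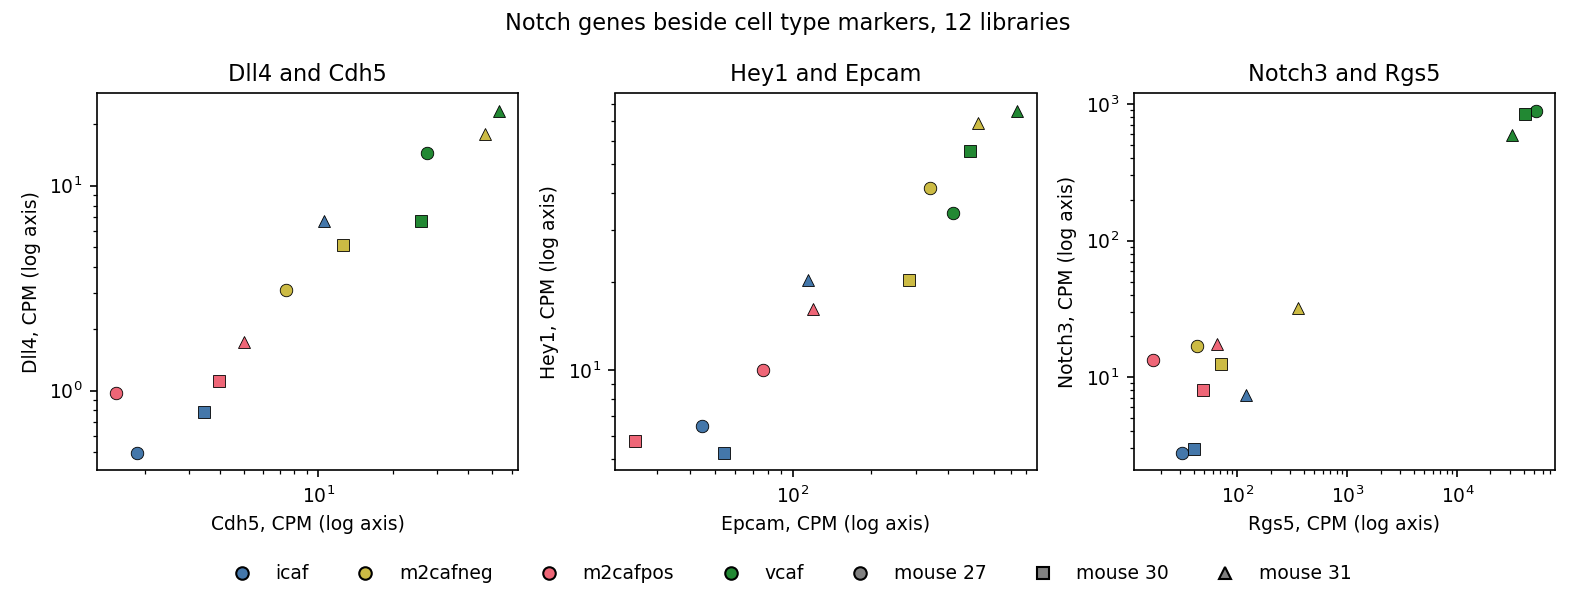
CPM of Dll4 against Cdh5, Hey1 against Epcam and Notch3 against Rgs5 in the 12 libraries, on log axes, with colours for populations and shapes for mice. Dll4 and Hey1 run along their marker over the whole range (Dll4 at 22.7% to 63.5% of Cdh5), while Notch3 stays at 2.75 to 32 CPM outside vcaf.

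The endothelial and the epithelial marker sum were each used as a covariate in the test of vcaf against the mean of the others. Both sums were themselves highest there. The pericyte, smooth muscle and macrophage sums were not used as covariates. With the endothelial sum, Notch3 (5.08), Jag1 (1.65), Hey2 (3.60) and Hes1 (1.40) were still higher past the threshold. The calls of Notch1 (1.17, adjusted p = 0.131), Notch4 (0.60), Heyl (0.82), Hey1 (0.13) and Dll4 (-0.29) were lost. With the epithelial sum, Notch1 (0.84), Notch3 (5.05), Jag1 (1.84), Hey2 (3.37) and Hes1 (1.57) were higher, and the calls of Notch4 (1.13), Heyl (0.48), Dll4 (0.30) and Hey1 (-0.10) were lost. The share of all genes called fell from 67.5% to 17.6% and 32.9% with these covariates. Notch2 was not past the threshold with either covariate (-0.58 and -0.56).

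The other genes of the pathway numbered 54, in lists of ligands, sugar transferases, cleavage, endocytosis and ubiquitination, nuclear complex and targets, of which 46 passed the filter. In vcaf against the mean of the others 28 were higher, 7 lower and 11 not past the threshold, with a median of 0.40 against 0.38 over all genes. Of all genes 53.3% were higher and 14.2% lower there. With median-of-ratios scaling 11 of these pathway genes stood higher and 12 lower, where 3648 of all 15456 genes were higher and 3797 lower. For icaf against the mean of both m2caf populations the counts were 4 higher and 12 lower (12.1% and 14.2% of all genes). For m2cafpos against m2cafneg they were 0 higher and 11 lower, where 3.51% and 22.6% of all genes were.

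Among the other ligands, Dlk1, a non-canonical ligand of mural and progenitor cells, was at 88.1 ± 21.8 CPM in vcaf (SD, n = 3) and at most 5.74 CPM in any other library. Its difference in vcaf was 5.10 (SE 0.38, limma adjusted p = 3.01e-07). Jag2 was 1.22 higher (SE 0.37, limma adjusted p = 0.0117), a call lost without vcaf 31 (0.93), and Dll1 was at 1.06 (limma adjusted p = 0.107; with the mouse as a block 0.000785; past the threshold also without icaf 31 or m2cafneg 31). Of the 5 sugar transferase genes, which modify the receptors and tune their choice of ligand, 1 was higher and 1 lower. Of all genes 53.3% were higher and 14.2% lower. These were Mfng at 1.90 (limma adjusted p = 0.00110) and Pofut1 at -0.48 (limma adjusted p = 0.00497), the latter lost without mouse 31 (-0.35). Lfng was at 0.38 (limma adjusted p = 0.0989; with the mouse as a block 0.0343).

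Of 9 cleavage genes, 6 were higher and 2 lower, to be read, like the lists that follow, against 53.3% and 14.2% of all genes. The metalloprotease genes Adam10 and Adam17, whose products cut Notch at the cell surface, moved apart, with Adam17 at -0.59 (limma adjusted p = 5.20e-05) and Adam10 at 0.67 (limma adjusted p = 0.000568). Furin, the protease that processes newly made receptor, was 0.47 higher (limma adjusted p = 0.00157), and neither Adam10 (0.25) nor Furin (0.06) was past the threshold with median-of-ratios scaling. Among 12 endocytosis and ubiquitination genes 7 were higher and 3 lower. They included Dtx3, of the deltex family, at 2.10 (limma adjusted p = 7.85e-07), the ubiquitin ligase gene Neurl1b at 2.09 (limma adjusted p = 8.25e-06), and Numbl, of the Numb family of Notch inhibitors, at -1.74 (limma adjusted p = 2.48e-05).

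In the nuclear complex list 7 of 10 genes were higher and 0 lower in vcaf, where 53.3% of all genes were higher, led by the demethylase gene Kdm5a at 0.71 (limma adjusted p = 1.62e-05), the acetyltransferase gene Ep300 at 1.04 (limma adjusted p = 3.76e-05) and the corepressor gene Spen at 0.84 (limma adjusted p = 0.000209). Rbpj, the DNA-binding partner of all Notch receptors, was singled out after its values were seen. It was at 29.9 ± 2.88 CPM in icaf, 13.5 ± 1.08 in m2cafneg, 13.1 ± 1.40 in vcaf and 8.67 ± 0.548 in m2cafpos (SD, n = 3). It was 1.38 higher in icaf than in the mean of both m2caf populations (SE 0.12, limma adjusted p = 4.23e-06), where Notch2 was higher and Heyl, Hes1, Notch1 and Notch3 were lower, and it was not past the threshold in vcaf against the mean of the others (-0.22, limma adjusted p = 0.0919). Of 7 other target genes tested 5 were higher and 1 lower in vcaf. The cyclin gene Ccnd1 was at 2.54 (limma adjusted p = 5.19e-06), the transcription factor gene Gata3, which also marks luminal epithelium, at 2.12 (limma adjusted p = 0.000374), and the ephrin receptor gene Epha3 at -3.90 (limma adjusted p = 9.21e-08). Gata3 was not past the threshold with the epithelial covariate (0.42). The small Notch feedback gene Nrarp fell below the filter, at 0.451 to 0.621 CPM in vcaf and at most 0.152 CPM elsewhere.

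For 6 members the levels ranged over at least 2 on the log2(CPM + 1) scale between population means, and the genes with the closest profiles over the 12 libraries were found for each, as the root mean square difference after centring. For Notch3 these were the ARF GTPase-activating gene Adap2 (0.28), its antisense partner Adap2os (0.48) and the myosin light chain kinase gene Mylk (0.51). Reads of Adap2 and Adap2os cannot be told apart without strand. For Hey2 they were Ppp1r14a, a myosin phosphatase inhibitor gene (0.21), Prkacb, a protein kinase A subunit gene (0.21), and Ccdc141 (0.28). Heyl was closest to the netrin receptor gene Unc5b (0.19), the endothelin receptor gene Ednra (0.39) and Myo1d (0.47), all of which were low in icaf. For example, Unc5b was at 6.01 ± 4.24 CPM in icaf and at 64.8 ± 26.8, 97.3 ± 18.1 and 80.6 ± 18.6 CPM in m2cafneg, m2cafpos and vcaf (SD, n = 3). Dll4 was closest to Gpihbp1 (0.35), Cdh5 (0.36) and Rbp7 (0.42), where Gpihbp1 and Cdh5 are known endothelial genes. Hey1 was closest to Npnt (0.19), Dennd2d (0.21) and Sidt1 (0.21), and Notch1 to the phosphodiesterase gene Pde4b (0.14), Cemip2 (0.24) and Ppfibp2 (0.26).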

How the data were processed

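RNA of sorted tumour stromal cells was sequenced on a NovaSeq, 1 library per population and mouse. The deposited table gives CPM made by the authors, and bcl2fastq, DRAGEN and the build mm10 appear in the submitters' processing notes, without versions. Counting tool, strand handling and annotation were not given in the sources used here. Dividing CPM by the value of 1 read gave whole reads (tolerance 0.001 reads) for 100% of values, and edgeR used these. Of 55774 lines 287 repeated a gene with equal values. The title 27_vacf was taken to mean vcaf, mouse 27. Positions and exon lengths are from GENCODE M21 (GRCm38), which held 99.4% of identifiers, and overlapping genes of the members averaged under 1 CPM.

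The tests covered 15456 genes that reached 1 CPM in 3 or more libraries. limma 3.58.1 (R 4.3.3) was run on log2(CPM + 1) (trend, two-sided, 4 groups of 3), with Benjamini-Hochberg adjustment over all of them within each of 8 comparisons and a threshold of 0.05. Adding 1 CPM understates changes of low genes. Alternatives were a pseudocount of 0.1 CPM, other filters, TMM and median-of-ratios scaling, the mouse as a block and edgeR 4.0.16 quasi-likelihood on the recovered reads. Further ones were the compared populations alone, the endothelial or epithelial marker sum as a covariate and leaving out each library. Scripts were tested on simulated data. Titles number 3 mice shared by all populations, so libraries of a number come from 1 animal. Deviations from population means correlated with a median r of 0.293 (0.0843 to 0.452) over 18 same-mouse pairs and -0.149 over 36 others. The main fit had no term for the mouse, so its p-values treat libraries of the same animal as independent. They rest on the spread between libraries within populations, pooled over the 4 populations of these 3 mice. They do not measure the spread of differences within a mouse. All members were named, with 3 genes per pathway list by smallest adjusted p in vcaf, 10 defining markers, and the 3 closest profiles among genes of at least 10 CPM on average. The members and lists were chosen with earlier results of these data known.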

Additional observations from a re-analysis of the deposited data

How the results depend on the processing

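For vcaf compared with the mean of the others, 10 members were called in each fit that left out a library. With the endothelial and epithelial covariates 4 and 5 were called (17.6% and 32.9% of all genes). Those covariates gave 6 and 6 of 10 calls for vcaf against icaf (27% and 21.1% of all genes) and 3 and 4 of 8 against m2cafpos (10.2% and 28.7%). The endothelial covariate gave 4 of 7 against m2cafneg (20%), and the epithelial covariate 1 of 5 for icaf against m2cafneg (3.88%). Called differences that reversed, none past the threshold afterwards, were Dll4 with the endothelial covariate in vcaf against the mean (-0.29) and against m2cafpos (-0.81), and Hey1 with the epithelial covariate in vcaf against the mean (-0.10), against icaf (-0.053) and against m2cafpos (-0.29, and -0.13 with the endothelial one), in m2cafpos against m2cafneg (0.33) and in icaf against m2cafneg (0.10). Jag2 with the endothelial covariate was at -0.088. Dll1, not past the threshold before, was past it in the other direction with the epithelial covariate (-1.33). A further 41 values changed sign without being past the threshold before or after. The cause was not tested.

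For m2cafpos against m2cafneg the single call became 0 without a filter, with median-of-ratios scaling, edgeR or either covariate, and 3 with the populations alone or without mouse 31 (added after seeing the data), and it was 0 to 2 when a library was left out. Icaf against m2cafpos gave 5 calls, 3 without a filter and 2 to 5 when a library was left out. With the mouse as a replicate block m2cafpos against m2cafneg had 3 calls. The block also brought Hey1 in icaf against both m2caf populations, Notch2 in vcaf against m2cafpos, Dll4 in icaf against m2cafneg (-1.51, adjusted p = 0.00720), Dll1 and Lfng past the threshold, and changed no other call among the members in the 8 comparisons or the pathway genes named.

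Of the other pathway genes, 35 called in vcaf became 23 with median-of-ratios scaling or edgeR (48.2% and 46.9% of all genes called). They became 10 and 18 with the endothelial and epithelial covariates (17.6% and 32.9%). In icaf 16 became 6 with the epithelial covariate (15.3% of all genes) and 7 to 16 when a library was left out. In m2cafpos against m2cafneg 11 became 6 with TMM or median-of-ratios scaling (16.7% and 17.1%), 4 with edgeR (13.5%) and 0 with either covariate (0.505% and 1.44%). The count was 5 without mouse 31 and 6 to 14 when a library was left out. Among 2217 values of single genes under the alternatives, 2026 kept their direction and side of the threshold. With 3 mice, differences well beyond the SE given could also stay short of the threshold. An example was Dll4 in m2cafpos against m2cafneg, at -1.79 (SE 0.65, limma adjusted p = 0.0600).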
